A study of Mus musculus with 12 samples.

Results

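The 9 members examined of the Ly49 family of mouse natural killer (NK) cell receptors were followed through 4 groups of libraries from cells sorted as NK cells. They were chosen by symbol, as the rows Klra1, Klra3, Klra4, Klra6, Klra7, Klra8, Klra9, Klra10 and Klra13-ps, and make up 9 of the 33100 gene rows counted. The same symbol stem marks 5 more rows, Klra2, Klra5, Klra17, Klra11-ps and Klra14-ps, which serve here as neighbours for comparison.

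The study sequenced total RNA of cells sorted as NK cells from tumor and from spleen of cKO mice, in which 1 gene was conditionally knocked out, and of control (WT) mice. There were 3 libraries in each group: tumor cKO, tumor WT, spleen cKO and spleen WT. The labels do not say in which cells the knockout acts, which tumor was used, what strain or age the mice had, or whether a group's 3 libraries stem from different animals. The p-values therefore cover the spread between these libraries, which may be technical.

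Ly49 receptors are lectin-like proteins of the NK cell surface, and they are the mouse counterpart of the human KIR receptors in function although not in sequence. Most of them bind MHC class I molecules and carry an inhibitory motif that recruits the phosphatases SHP-1 and SHP-2, while a few lack that motif and activate the cell through the adaptors DAP12 and DAP10. Each NK cell switches on only some of the genes, apparently by chance and often from a single allele, so that the level in a bulk sample reflects both how many cells have chosen a gene and how strongly they transcribe it. In bulk samples fewer cells of a type and less RNA per cell cannot be told apart.

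By their roles in mice of the reference haplotype the 9 genes fall into 6 inhibitory receptors, 2 activating receptors and 1 pseudogene. The inhibitory receptors are Klra1 (Ly49A), Klra3 (Ly49C), Klra6 (Ly49F), Klra7 (Ly49G), Klra9 (Ly49I) and Klra10 (Ly49J). The activating receptors are Klra4 (Ly49D) and Klra8 (Ly49H), of which Ly49H recognises cells infected with mouse cytomegalovirus. Klra13-ps (Ly49M) is annotated as a transcribed unprocessed pseudogene in GENCODE vM21, and the other 8 as protein coding. All 9 lie on the minus strand of chromosome 6 of GRCm38, in a run of 373842 bases at chr6:130013033-130386874, in the order Klra6, Klra4, Klra8, Klra9, Klra7, Klra10, Klra13-ps, Klra3 and Klra1. No other gene row overlapped any of them.

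The 250 bases before the annotated start are printed for Klra1, which stood apart from the others in tumor, for Klra9 and Klra6, which were lowered most in tumor cKO libraries, and for the activating receptor gene Klra8. They are RefSeq sequences of GRCm38.p6, read 5′ to 3′ on the minus strand, from chr6:130386875-130387124, chr6:130193113-130193362, chr6:130026955-130027204 and chr6:130129899-130130148. The capitals mark a run of 11 bases that the windows of 6 genes (Klra3, Klra4, Klra6, Klra7, Klra8 and Klra9) hold in common.
Klra1: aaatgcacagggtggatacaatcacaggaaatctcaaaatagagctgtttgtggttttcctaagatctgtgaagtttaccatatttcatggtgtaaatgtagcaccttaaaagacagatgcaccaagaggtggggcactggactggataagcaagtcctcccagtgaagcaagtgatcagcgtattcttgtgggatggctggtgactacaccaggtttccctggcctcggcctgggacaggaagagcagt
Klra9: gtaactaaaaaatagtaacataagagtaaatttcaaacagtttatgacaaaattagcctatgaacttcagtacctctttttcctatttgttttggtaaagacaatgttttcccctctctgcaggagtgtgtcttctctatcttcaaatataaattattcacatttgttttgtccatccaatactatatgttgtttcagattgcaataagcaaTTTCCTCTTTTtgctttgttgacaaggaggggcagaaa
Klra6: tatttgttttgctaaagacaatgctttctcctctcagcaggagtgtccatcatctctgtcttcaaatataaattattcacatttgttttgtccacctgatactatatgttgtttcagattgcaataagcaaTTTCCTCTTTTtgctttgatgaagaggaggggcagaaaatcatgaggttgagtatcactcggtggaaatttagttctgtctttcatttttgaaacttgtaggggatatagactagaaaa
Klra8: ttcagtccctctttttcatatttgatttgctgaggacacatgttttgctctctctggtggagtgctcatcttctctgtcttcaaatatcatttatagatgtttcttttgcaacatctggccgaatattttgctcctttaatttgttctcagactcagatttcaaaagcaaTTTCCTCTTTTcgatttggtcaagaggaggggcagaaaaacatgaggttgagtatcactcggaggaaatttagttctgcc

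RefSeq windows of 250 bases before to 50 bases after the start were found for 8 of the 9 genes, 10 windows in all, with none for Klra13-ps. The shared run TTTCCTCTTTT was present in 49 of 32851 such windows across the mouse genome (0.149%), counting both strands. Its first base lay 38 bases before the start in Klra9, 119 before it in Klra6 and 80 before it in the first window of Klra8. Between the windows of those 6 genes that hold the run the longest identical stretch was 17 to 75 bases, the longest being between Klra3 and Klra9, whose windows aligned over 281 bases with 96.44% identity. Klra1 shared no stretch longer than 9 bases with a window of any other member. Klra10 and the second window of Klra7 likewise lacked the run and shared no stretch longer than 9 bases with the windows that hold it, but shared 20 bases with each other. Of 5 short motifs searched on both strands, the Klra1 window held TGTGGT (RUNX, in 16.8% of all windows), AGGAAG (ETS, 35.4%) and GTGTGA (T-box, 14.5%), and the windows of Klra6 and Klra7 held CTTTGA (TCF/LEF, 16%). The T-box letters of Klra1 began 35 bases after the start, outside the 250 bases printed above. The ETS letters were also in the second window of Klra7, as was the motif of GATA factors, AGATAA (11.2% of all windows). These matches describe letters only.

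Libraries held 9542329 to 37118494 counted reads, of which 1016 to 1935 in tumor cKO, 821 to 1332 in tumor WT, 3336 to 3506 in spleen cKO and 3297 to 4999 in spleen WT fell on the 9 genes. Levels between groups are given as CPM, counts scaled to library size and TMM composition factors. In tumor libraries the NK markers were far lower than in spleen, the 9 markers summing to 31.0 to 45.5 CPM in tumor cKO and 43.5 to 155 in tumor WT. Ncr1 had 0.421 to 0.769 CPM in tumor cKO and 1.63 to 1.86 in tumor WT, and Klrb1c (NK1.1) had 1.007 to 2.14 in tumor cKO and 1.72 to 8.08 in tumor WT, against 113 to 170 in the 6 spleen libraries. The markers Eomes (6.55 to 11.6 CPM in tumor cKO and 7.97 to 43.2 in tumor WT) and Klre1 (3.37 to 3.91 in tumor cKO and 5.32 to 17.4 in tumor WT) were less low. Macrophage markers were high there, their summed level being 842 to 2295 CPM over 10 genes in tumor cKO and 5890 to 12165 in tumor WT, and Adgre1 (F4/80) had 9.84 to 28.1 CPM in tumor cKO and 91.5 to 216 in tumor WT. Siglech, a marker of plasmacytoid dendritic cells, stayed at or below 0.362 CPM in each library. Tumor WT replicate 2 stood apart by its fibroblast markers, whose summed level was 1618 CPM against 78.7 and 159 in the other tumor WT libraries. Tumor cKO replicate 3, which had the highest Klra1 level, stood apart by its macrophage markers (842 CPM against 2152 and 2295 in the other tumor cKO libraries) and had the highest T-cell marker sum (768 against 558 and 603 CPM). Spleen libraries carried NK markers, as Ncr1 lay between 90.8 and 154 CPM in spleen cKO and between 128 and 204 in spleen WT. B-cell markers were present as well, Pax5 ranging over 465 to 565 CPM in spleen cKO and 491 to 648 in spleen WT. The 10 B-cell markers summed to 2861 to 3240 CPM in spleen cKO and 3088 to 3510 in spleen WT, beside 1042 to 1323 in spleen cKO and 999 to 1356 in spleen WT for the 9 NK markers. The label "NK cells" thus fits the markers of the tumor libraries poorly and those of the spleen libraries in part, and every value below, in either tissue, is a level in a mixture. Differences were tested with edgeR's quasi-likelihood test on the counts of all 12 libraries, with p adjusted over the 16831 genes tested and a call at 0.05, and all 9 genes passed the filter on low counts.

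In spleen the 9 genes ranged over about an order of magnitude, and their order was nearly the same in both genotypes. Per length, as mean RPKM ± SD of 3 libraries, Klra13-ps was at the top with 65.1 ± 24.0 in spleen cKO and 75.7 ± 20.6 in spleen WT. Klra8 followed with 40.7 ± 3.55 in spleen cKO and 48.9 ± 16.2 in spleen WT, and Klra9 came next with 37.6 ± 3.17 in spleen cKO and 45.1 ± 7.82 in spleen WT. Klra4 and Klra7 lay between 26.0 and 32.5 RPKM in both genotypes, and Klra3 and Klra10 between 13.3 and 16.1. At the low end stood Klra1 with 10.03 ± 1.11 RPKM in spleen cKO and 7.90 ± 1.28 in spleen WT, and Klra6 with 6.81 ± 0.627 in spleen cKO and 5.61 ± 1.12 in spleen WT. Most neighbours in this order overlapped between libraries. The exceptions were Klra1 above Klra6 in both genotypes and, in spleen cKO alone, Klra13-ps above Klra8 and Klra4 above Klra3.

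The tumor order began with another gene. Klra1 was the highest of the 9 in both tumor groups, with 30.6 ± 8.84 RPKM in tumor cKO and 8.93 ± 0.824 in tumor WT. In tumor cKO no library of another member reached the lowest Klra1 value, and the next gene, Klra13-ps, had 2.58 ± 0.994 RPKM. In tumor WT the range of Klra1 overlapped that of Klra7 (6.26 ± 4.28 RPKM). The remaining 7 genes of tumor WT averaged 1.38 to 5.14 RPKM, and those of tumor cKO, Klra7 now among them and Klra13-ps not, averaged 0.265 to 2.08. Tumor values of single genes rest on few reads, for instance 8 to 15 reads of Klra9 and 2 to 12 of Klra10 per tumor cKO library.

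**Figure D1:**
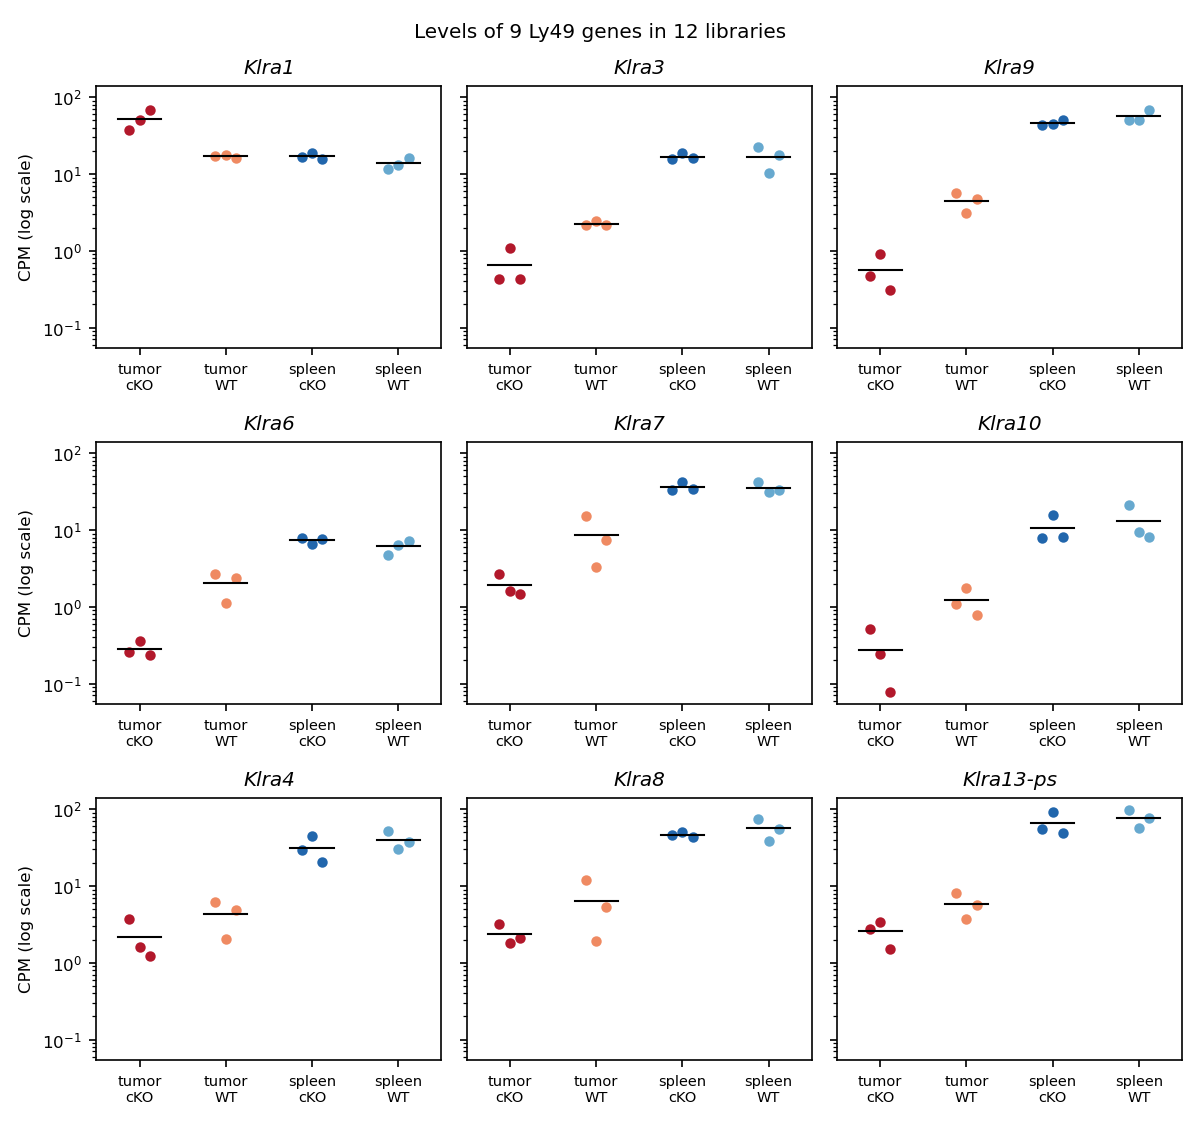
Counts scaled to library size (CPM, log scale) of each of the 9 Ly49 genes in the 3 libraries of tumor cKO, tumor WT, spleen cKO and spleen WT; points are libraries and bars the group mean. Klra1 is highest in tumor cKO (37.9 to 67.6 CPM), whereas the other 8 genes are highest in spleen.

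The knockout was first compared with control in tumor, where most inhibitory receptor genes were lower and Klra1 alone was higher. Of the 9 genes 1 rose (Klra1) and 6 fell (Klra3, Klra6, Klra7, Klra9, Klra10 and Klra13-ps) in tumor cKO against tumor WT. Across all genes tested the same rule called 38% of genes in this comparison, 16.4% as higher and 21.6% as lower. The median log2 fold change was -1.87 over the 9 genes and -0.117 over all genes. Groups did not overlap for 7 of the 9, beside 50.3% of all genes (23% higher, 27.3% lower). By role, all 6 inhibitory receptor genes and the pseudogene were called, and neither of the 2 activating receptor genes was. Whether the activating genes differ from the inhibitory ones was not tested.

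Klra1 encodes Ly49A, an inhibitory receptor for the H-2D ligands of some mouse strains. It had 37.9, 50.02 and 67.6 CPM in tumor cKO libraries, against 17.3, 18.0 and 16.0 CPM in tumor WT libraries. Every tumor cKO library was above every tumor WT library. The log2 fold change was 1.60 ± 0.21 (SE, n = 3 against 3 libraries, edgeR adjusted p = 0.000126), a level 3.03 times as high. Without tumor cKO replicate 3 it was 1.37, and over the 12 fits that left out 1 library the adjusted p was at most 0.000794.

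Klra9 encodes Ly49I, which together with Ly49C, the product of Klra3, binds H-2K of the b haplotype. Klra9 had 0.470, 0.902 and 0.310 CPM in tumor cKO, against 5.75, 3.10 and 4.70 CPM in tumor WT. This was the largest fall of the 9, with a log2 fold change of -3.06 ± 0.34 (edgeR adjusted p = 5.22e-05). Klra3 had 0.427, 1.08 and 0.426 CPM in tumor cKO, against 2.15, 2.48 and 2.17 CPM in tumor WT, and its log2 fold change was -1.87 ± 0.38 (edgeR adjusted p = 0.00221). In neither gene did the groups overlap.

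Klra6, the gene of the inhibitory receptor Ly49F, was counted 6 times in each of the 3 tumor cKO libraries. Its level was 0.256, 0.361 and 0.232 CPM in tumor cKO, against 2.67, 1.13 and 2.41 CPM in tumor WT. The log2 fold change was -2.85 ± 0.43 (edgeR adjusted p = 0.000302), again without overlap of the groups. It was thus the second deepest fall, in the gene that was lowest of all in spleen.

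Klra7 encodes Ly49G, an inhibitory receptor found on a large share of NK cells. Its level was 2.65, 1.62 and 1.47 CPM in tumor cKO, against 15.2, 3.32 and 7.53 CPM in tumor WT, with a log2 fold change of -2.16 ± 0.45 (edgeR adjusted p = 0.00306). The groups did not overlap, although the tumor WT libraries differed among themselves, and without tumor WT replicate 1 the log2 fold change was -1.46 (adjusted p = 0.00642). Klra10, the gene of Ly49J, had 0.512, 0.240 and 0.0775 CPM in tumor cKO, against 1.10, 1.77 and 0.783 CPM in tumor WT. Its log2 fold change was -2.16 ± 0.63 (edgeR adjusted p = 0.0164). The call was lost without tumor cKO replicate 3 (-1.67, adjusted p = 0.0718) or without tumor WT replicate 2 (-1.75, adjusted p = 0.0683), and without tumor cKO replicate 1 the fall was larger (-3.04, adjusted p = 0.0087).

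Both activating receptor genes were lower on average in tumor cKO but did not pass the test. Klra4 had 3.67, 1.62 and 1.24 CPM in tumor cKO, against 6.16, 2.03 and 4.94 CPM in tumor WT, with a log2 fold change of -0.97 ± 0.49 (95% interval -2.04 to 0.10, edgeR adjusted p = 0.14). Klra8 had 3.16, 1.80 and 2.09 CPM in tumor cKO, against 12.03, 1.91 and 5.30 CPM in tumor WT, with a log2 fold change of -1.40 ± 0.53 (95% interval -2.57 to -0.24, edgeR adjusted p = 0.0568). Groups overlapped for both genes. These outcomes turn on single libraries. Klra8 passed the test without tumor WT replicate 2 (-1.86, adjusted p = 0.00259), with DESeq2 (adjusted p = 0.00816) and with no filter on low counts (adjusted p = 2.17e-07), and its difference shrank to -0.54 without tumor WT replicate 1 (adjusted p = 0.349). Klra4 passed without tumor cKO replicate 1 (-1.59, adjusted p = 0.0313), without tumor WT replicate 2 (adjusted p = 0.043) and with no filter (adjusted p = 0.00304).

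The pseudogene Klra13-ps had 2.78, 3.43 and 1.51 CPM in tumor cKO, against 8.14, 3.77 and 5.66 CPM in tumor WT. Its log2 fold change of -1.19 ± 0.38 passed the test (edgeR adjusted p = 0.0277), with groups just short of overlapping. The call was lost under 4 of the 12 settings that left out 1 library (tumor cKO replicates 1 and 3, tumor WT replicates 1 and 3, adjusted p = 0.0548 to 0.116).

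**Figure D2:**
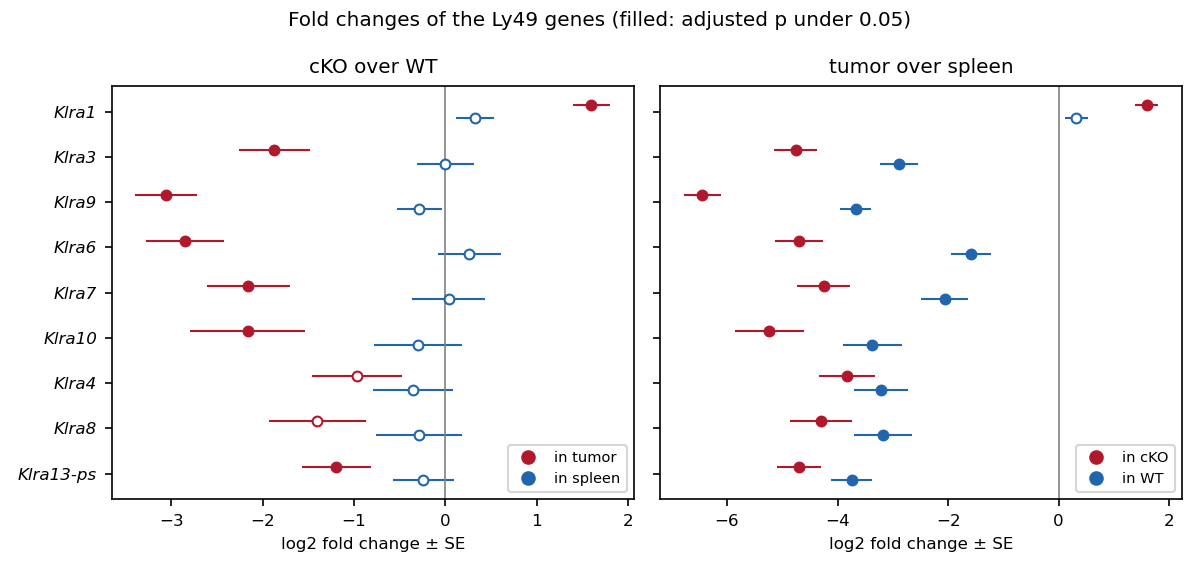
Log2 fold changes ± SE of the 9 Ly49 genes from the edgeR fit, cKO over WT in tumor and in spleen (left panel) and tumor over spleen in cKO and in WT (right panel); filled points have an adjusted p under 0.05. In the left panel Klra1 lies at 1.60 in tumor and the other genes at -0.97 to -3.06 in tumor, while all spleen points are open.

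In spleen the same genotype contrast gave no call among the 9 genes. edgeR called 0 of 9 genes in spleen cKO against spleen WT, and 0.0297% of all genes tested (5 genes). At an unadjusted p under 0.05 edgeR counted 0 of the 9 genes and 784 of all genes, and DESeq2 counted 0 of the 9 and 1147 of all, with 46 genes called. Log2 fold changes of the 9 genes lay between -0.35 for Klra4 and 0.32 for Klra1, with a median of -0.242, and the 3 cKO libraries overlapped the 3 WT libraries for each gene. Of all genes tested 11.4% had groups without overlap (5.94% higher, 5.43% lower).

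The spleen intervals show what size of change these libraries allow. Klra1 had 16.7, 19.0 and 15.8 CPM in spleen cKO, against 11.7, 13.3 and 16.3 CPM in spleen WT, and the 95% interval of its log2 fold change was -0.13 to 0.77. Klra9 had 43.7, 45.2 and 51.3 CPM in spleen cKO, against 51.4, 50.8 and 68.7 CPM in spleen WT, with an interval of -0.81 to 0.25. The widest intervals were those of Klra10 (-1.34 to 0.74) and Klra8 (-1.31 to 0.75). Falls as large as those of Klra9, Klra6 and Klra7 in tumor lie outside the spleen intervals of these genes.

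Whether the genotype effect differed between tumor and spleen was tested as a difference of the 2 log2 fold changes in the same fit. Of the 9 genes 5 passed, with Klra1 more positive in tumor and 4 more negative. Across all genes tested this call was made for 18.3%, 7.68% more positive and 10.6% more negative. The difference was 1.28 ± 0.29 for Klra1 (adjusted p = 0.0104), -3.11 ± 0.55 for Klra6 (adjusted p = 0.00371), -2.77 ± 0.42 for Klra9 (adjusted p = 0.00196), -2.19 ± 0.60 for Klra7 (adjusted p = 0.0267) and -1.87 ± 0.50 for Klra3 (adjusted p = 0.0209). It did not pass for Klra4 (-0.62, adjusted p = 0.557), Klra8 (-1.12, adjusted p = 0.299), Klra10 (-1.86, adjusted p = 0.119) or Klra13-ps (-0.95, adjusted p = 0.212). Klra8 passed without tumor WT replicate 2 (-1.58, adjusted p = 0.035) and was at -0.26 without tumor WT replicate 1 (adjusted p = 0.802). Klra10 passed without tumor cKO replicate 1 (-2.74, adjusted p = 0.0498). Leaving out 1 library moved Klra4 between -1.24 (without tumor cKO replicate 1) and -0.27 (without tumor WT replicate 1), with no pass. The call for Klra3 was lost without tumor cKO replicate 1 (adjusted p = 0.0508) or 3 (adjusted p = 0.0591). That for Klra7 was lost without any 1 of 5 libraries (spleen cKO replicate 2, spleen WT replicates 2 and 3, tumor cKO replicates 2 and 3, adjusted p = 0.0567 to 0.0736), and without tumor WT replicate 1 the difference was -1.498 (adjusted p = 0.0381). Without tumor cKO replicate 3 a total of 3 of the 9 genes passed, beside 2140 of all genes.

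Between tissues all members but Klra1 were far lower in tumor. In cKO libraries 8 of the 9 genes fell in tumor against spleen and Klra1 rose, beside 60.5% of all genes called (31.7% higher, 28.8% lower). The log2 fold changes of the 8 lay between -6.44 for Klra9 and -3.83 for Klra4. In WT libraries all members but Klra1 fell and none rose, beside 62% of all genes called (33.9% higher, 28.1% lower). There the falls lay between -3.74 for Klra13-ps and -1.59 for Klra6. The median over the 9 genes was -4.69 in cKO and -3.17 in WT, and over all genes it was 0.071 in cKO and 0.116 in WT. Groups did not overlap for any of the 9 in cKO, beside 70% of all genes (36.6% higher, 33.4% lower), nor for the 8 in WT, beside 67.4% of all genes (36.4% higher, 30.9% lower). Single libraries moved 4 of these values by over 1.5 times. Without tumor cKO replicate 1 the change in cKO was -4.45 for Klra4 (-3.83 with it) and -6.11 for Klra10 (-5.23 with it). Without tumor WT replicate 1 the change in WT was -2.75 for Klra7 (-2.06 with it) and -4.03 for Klra8 (-3.17 with it).

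Klra9 changed most with tissue among cKO libraries. Its 0.470, 0.902 and 0.310 CPM in tumor cKO stood against 43.7, 45.2 and 51.3 CPM in spleen cKO, a log2 fold change of -6.44 ± 0.34 (edgeR adjusted p = 1.3e-08). In WT libraries, Klra9 had 5.75, 3.10 and 4.70 CPM in tumor and 51.4, 50.8 and 68.7 CPM in spleen, with a log2 fold change of -3.67 ± 0.28 (edgeR adjusted p = 2.03e-07). Groups did not overlap in either genotype.

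Klra1 went the other way among cKO libraries, with 37.9, 50.02 and 67.6 CPM in tumor and 16.7, 19.0 and 15.8 CPM in spleen. The groups did not overlap, and the log2 fold change was 1.60 ± 0.21 (edgeR adjusted p = 2.37e-05). Among WT libraries it had 17.3, 18.0 and 16.0 CPM in tumor and 11.7, 13.3 and 16.3 CPM in spleen. These ranges overlapped by a narrow margin, and the log2 fold change of 0.32 ± 0.21 did not pass (95% interval -0.13 to 0.76, edgeR adjusted p = 0.195).

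The share of each gene in the summed reads of the 9 shows how the composition shifted. Klra1 supplied 73.1%, 81.9% and 90.2% of these reads in tumor cKO, 24.5%, 48.0% and 32.3% in tumor WT, 6.47%, 5.70% and 6.44% in spleen cKO and 3.08%, 5.37% and 5.04% in spleen WT. Klra9 supplied 0.413% to 1.48% in tumor cKO, 8.15% to 9.50% in tumor WT, 13.5% to 20.8% in spleen cKO and 13.5% to 21.3% in spleen WT. Shares were also taken of the reads of the 8 genes other than Klra1. Klra13-ps made up 19.9% to 31.0% of the reads of the 8 in tumor cKO, 15.3% to 19.3% in tumor WT, 21.1% to 29.2% in spleen cKO and 24.2% to 26.7% in spleen WT, and Klra8 made up 16.3% to 28.4% in tumor cKO, 9.81% to 22.6% in tumor WT, 16.0% to 19.2% in spleen cKO and 16.4% to 20.5% in spleen WT. Klra9 was lower within the 8 in tumor cKO (3.37% to 8.15%) than in tumor WT (10.8% to 15.9%). Shares are descriptions of single libraries and were not tested.

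**Figure D3:**
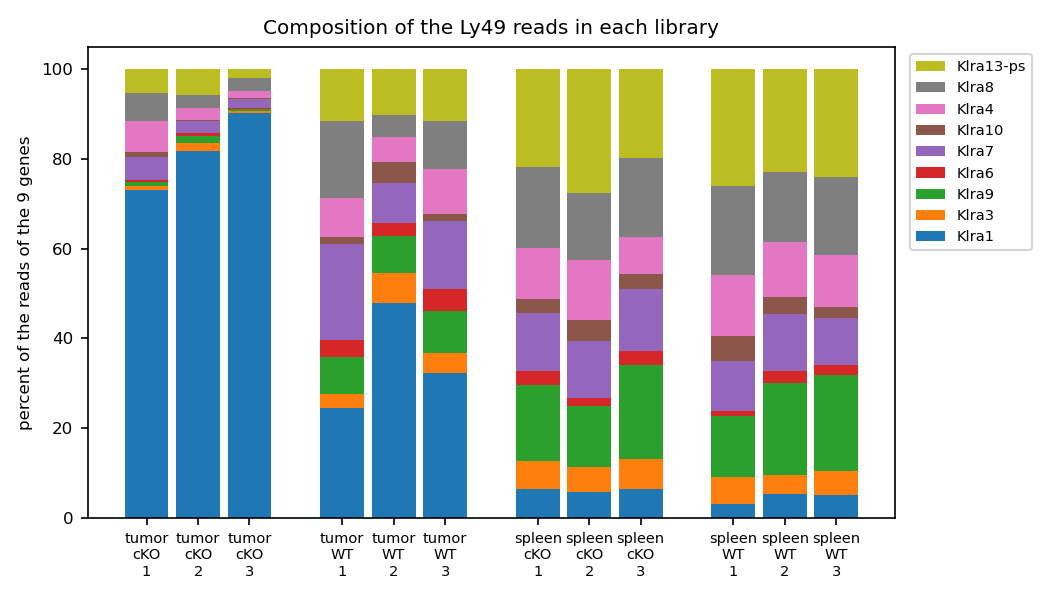
Percent of the summed reads of the 9 Ly49 genes that falls on each gene, one bar per library, for tumor cKO, tumor WT, spleen cKO and spleen WT. Klra1, at the foot of each bar, takes 73.1% to 90.2% in tumor cKO and 3.08% to 6.47% in the 6 spleen libraries.

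The summed NK markers went the same way as the 8 genes other than Klra1, while single markers differed in degree. The 9 NK markers examined were Ncr1, Klrb1c, Klre1, Klri2, Eomes, Cd160, Gzma, Prf1 and Itga2. All 9 were lower in tumor than in spleen in both genotypes, beside 28.8% of all genes in cKO and 28.1% in WT. In tumor cKO against tumor WT 7 of 9 were lower, beside 21.6% of all genes. The summed level of the 9 markers was 31.0 to 45.5 CPM in tumor cKO, 43.5 to 155 in tumor WT, 1042 to 1323 in spleen cKO and 999 to 1356 in spleen WT. For each read of these markers the 8 genes other than Klra1 had 0.238 to 0.340 reads in tumor cKO, 0.264 to 0.449 in tumor WT, 0.200 to 0.238 in spleen cKO and 0.226 to 0.323 in spleen WT. Ranges of tumor cKO and tumor WT overlapped on this scale. For Klra1 the same ratio was 0.925 to 2.18 in tumor cKO, 0.112 to 0.414 in tumor WT, 0.0138 to 0.0160 in spleen cKO and 0.0103 to 0.0133 in spleen WT, and no group overlapped another.

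Single genes among the 8 took different values on the scale of NK marker reads. Klra9 had 0.0100 to 0.0198 reads per NK marker read in tumor cKO, against 0.0370 to 0.0712 in tumor WT, and Klra6 had 0.00625 to 0.00794 in tumor cKO, against 0.0173 to 0.0259 in tumor WT. Neither pair overlapped. The ratio of Klra13-ps was 0.0488 to 0.0754 in tumor cKO and 0.0446 to 0.0868 in tumor WT, and that of Klra8 was 0.0397 to 0.0771 in tumor cKO and 0.0417 to 0.0777 in tumor WT. Both of these overlapped almost completely. Against Ncr1 alone, the gene of the NKp46 receptor, the 8 genes had 11.2 to 26.3 reads per Ncr1 read in tumor cKO, 11.2 to 28.6 in tumor WT, 1.49 to 3.47 in spleen cKO and 1.503 to 2.87 in spleen WT. Per Klrb1c read the 8 genes had 6.52 to 8 reads in tumor cKO and 6.59 to 11.4 in tumor WT. In spleen they had 1.85 to 2.05 in cKO and 1.99 to 3.13 in WT. Against either marker alone the 8 genes were thus higher in tumor than in spleen, as both markers fell more than the sum of the NK markers. These tumor ratios rest on few marker reads. Ncr1 had 7 to 18 reads per library in tumor cKO and 27 to 62 in tumor WT, and Klrb1c had 23 to 50 in tumor cKO and 56 to 139 in tumor WT. The part of a lower NK cell content in the falls was not tested.

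**Figure D4:**
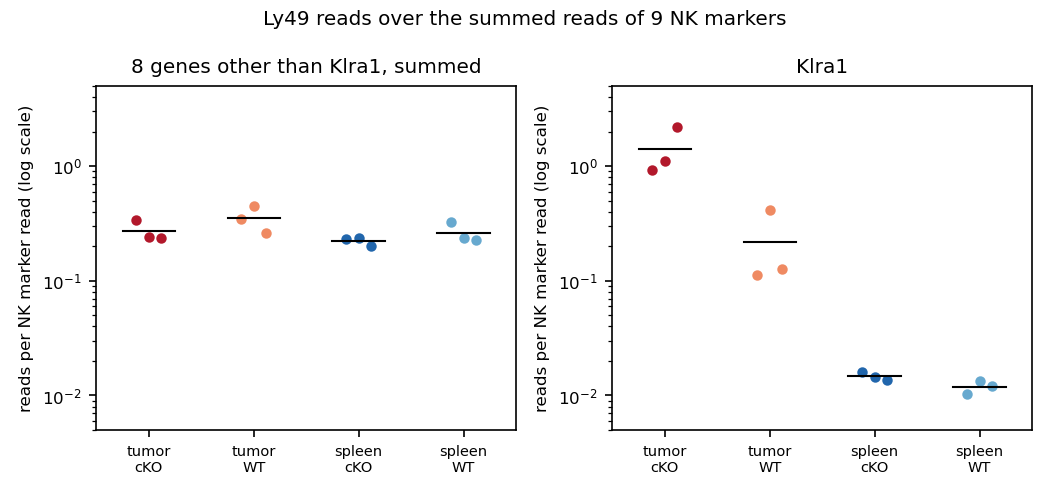
Reads per read of 9 NK marker genes (log scale) for the 8 Ly49 genes other than Klra1, summed, and for Klra1, in each library of tumor cKO, tumor WT, spleen cKO and spleen WT; bars are group means. The sum of 8 lies between 0.200 and 0.449 in all 12 libraries, whereas Klra1 lies between 0.0103 and 2.18.

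T-cell markers were set beside Klra1 because some of them also rose in tumor cKO. Of 12 T-cell markers, 5 were higher and 1 (Trbc1) was lower in tumor cKO than in tumor WT, and their summed level was 558 to 768 CPM in tumor cKO, 265 to 336 in tumor WT, 151 to 235 in spleen cKO and 117 to 153 in spleen WT. In tumor against spleen 9 of the 12 were higher and 1 lower in cKO, where Klra1 rose. In WT, where Klra1 did not pass, 7 of the 12 were higher and 1 lower. Over all genes 31.7% were higher and 28.8% lower in cKO, and 33.9% higher and 28.1% lower in WT. For tumor cKO against tumor WT the shares over all genes were 16.4% higher and 21.6% lower. None of the 12 was at 0 in all libraries of a group. Cd3d, a subunit of the T-cell receptor complex, was at 80.0 to 104 CPM in tumor cKO, 38.6 to 48.2 in tumor WT, 22.5 to 38.5 in spleen cKO and 14.5 to 23.6 in spleen WT. Relative to the summed T-cell marker level, Klra1 stood at 0.0680 to 0.0880 in tumor cKO, 0.0515 to 0.0679 in tumor WT, 0.0811 to 0.105 in spleen cKO and 0.0984 to 0.106 in spleen WT. Of 5 gamma-delta and NKT markers, 2 rose (Tcrg-C1 and Tcrg-C2) and 2 fell (Trdc and Zbtb16) in tumor cKO against tumor WT, and Sox13 was not tested. In spleen cKO against spleen WT 1 of the 4 tested was higher (Tcrg-C2, 1.29 ± 0.18, edgeR adjusted p = 0.0303), beside 0.0297% of all genes. The summed level of the 5 markers was 148 to 192 CPM in tumor cKO, 66.6 to 73.8 in tumor WT, 23.0 to 31.7 in spleen cKO and 23.1 to 25.5 in spleen WT. The part of T cells in the Klra1 result was not tested.

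Among transcription factors with known roles in NK cells, the profile of Tcf7 lay close to that of Klra1. Tcf7 encodes TCF-1, which in mice is known to be needed for a normal share of Ly49A-positive NK cells, and it is also abundant in T cells. It had 284, 271 and 369 CPM in tumor cKO, 90.8, 111 and 85.7 in tumor WT, 92.5, 78.0 and 91.5 in spleen cKO and 83.3, 103 and 115 in spleen WT. As with Klra1, only the tumor cKO libraries stood apart. Its log2 fold change in tumor cKO against tumor WT was 1.68 ± 0.16 (edgeR adjusted p = 2.84e-05), and the genotype effect in tumor exceeded that in spleen by 1.88 ± 0.23 (edgeR adjusted p = 0.000854). Bcl11b, a T-lineage factor, was likewise higher, with 98.5 to 132 CPM in tumor cKO and 21.2 to 30.2 in tumor WT. The part of Tcf7 in the Klra1 result was not tested.

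Tbx21, the gene of T-bet, a driver of NK cell maturation, went with the other 8. It had 4.44, 2.46 and 2.29 CPM in tumor cKO, 14.2, 5.55 and 9.64 in tumor WT, 75.0, 76.7 and 68.2 in spleen cKO and 63.2, 64.9 and 81.1 in spleen WT. The tumor groups did not overlap, and the log2 fold change in tumor cKO against tumor WT was -1.65 ± 0.32 (edgeR adjusted p = 0.00179). Of the 17 factors on the list 6 were higher and 8 lower in tumor cKO, beside 16.4% higher and 21.6% lower over all genes. In spleen cKO against spleen WT 0 of the 17 were called, beside 0.0297% of all genes. Eomes fell by 1.66 on the log2 scale. The largest fall was that of Nfil3 (-1.81 ± 0.26), a factor required for NK cell development. Unlike the NK markers, Nfil3 was higher in tumor than in spleen, with 63.5 to 95.2 CPM in tumor cKO, 244 to 346 in tumor WT, 7.11 to 9.62 in spleen cKO and 8.35 to 18.4 in spleen WT. Macrophage markers were also higher in tumor and lower in tumor cKO than in tumor WT, and their part in the Nfil3 result was not tested.

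**Figure D5:**
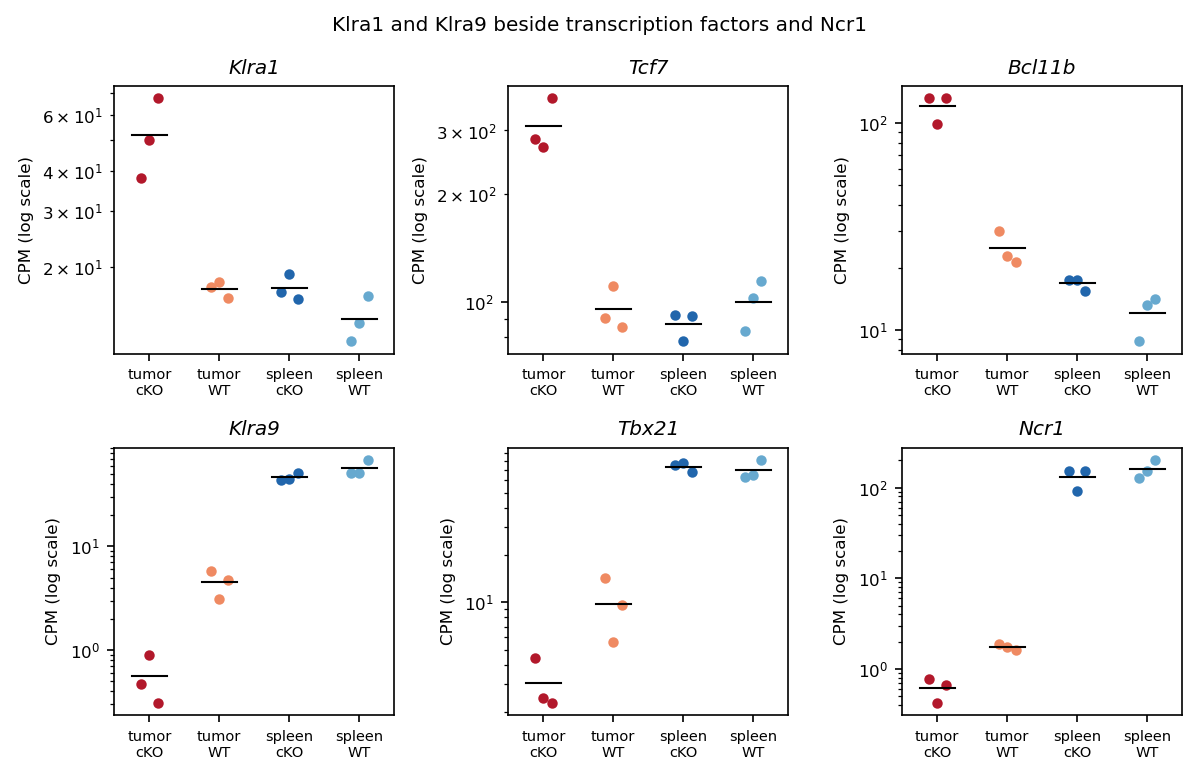
Counts scaled to library size (CPM, log scale, each panel with its own range) of Klra1, Tcf7 and Bcl11b (top row) and of Klra9, Tbx21 and Ncr1 (bottom row) in the libraries of tumor cKO, tumor WT, spleen cKO and spleen WT; bars are group means. The top genes are highest in tumor cKO and the bottom genes lowest there.

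A search over 10525 genes for the profiles most like those of the members gave different genes for Klra1 and for the rest. Likeness was the root mean square (RMS) difference of centred log2 CPM over the 12 libraries. Nearest to the mean of the 9 members were Treml2 (RMS 0.206), Sorl1, Sh2d3c, Ctsw, Itga4, Ms4a4b, Peg13, Stk26, Map4k2 and Txk (0.289). Within the 6 spleen libraries they were Fbxw4 (0.034), Kifc3, Mir7578, Cd69 and Rfc5 (0.065). The spleen search leaves out the tissue difference, and no member was called there, so its small RMS values are not comparable with those over 12 libraries. These 5 genes did not follow the members in tumor cKO against tumor WT. Cd69 rose (0.73 ± 0.19, edgeR adjusted p = 0.00857), and Fbxw4, Kifc3, Mir7578 and Rfc5 did not pass.

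Because Klra1 differed from the mean of the other members by an RMS of 2.68, against 0.385 to 1.14 for each of the others, both profiles were also searched apart, a choice made after seeing the data. Among the genes nearest to Klra1 were Aaas (0.146), Mrpl18, Mcm7, Phgdh, Exosc2, Rrm1, Pabpc4, Whsc1 and Gm26625 (0.224), with Tcf7 at rank 26 (0.253) and Bcl11b at rank 1632 (0.612). Mcm7 and Rrm1 encode proteins of DNA replication and of nucleotide supply for it. Mcm7 had 178 to 256 CPM in tumor cKO, 66.6 to 95.1 in tumor WT, 67.4 to 70.9 in spleen cKO and 56.1 to 59.5 in spleen WT. Nearest to the mean of the other 8 were Atp1b1 (0.215), Gimap6, Tbx21 (0.250), Setbp1, Peg13, Adamts14, Klre1, Ctsw, Txk and Sorl1 (0.324), of which Klre1 is a lectin-like receptor gene of the same chromosomal region.

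The remaining Klra rows fell into those that went with the 8 and those that did not. Klra14-ps had 0.427, 0.721 and 0.155 CPM in tumor cKO, 1.74, 0.901 and 1.08 in tumor WT, 16.8, 22.8 and 12.6 in spleen cKO and 32.7, 17.9 and 28.5 in spleen WT, and fell in tumor cKO against tumor WT (-1.56 ± 0.49, edgeR adjusted p = 0.0228). Klra5 (Ly49E) had 0, 2 and 0 reads in tumor cKO and 9, 5 and 6 in tumor WT, and also passed as lower (edgeR adjusted p = 0.0335). Klra2 (Ly49B), which in mice is found on myeloid cells, ran the other way between tissues. It had 11.0, 8.18 and 4.61 CPM in tumor cKO, 7.56, 10.8 and 6.15 in tumor WT, 1.61, 1.60 and 0.569 in spleen cKO and 0.304, 0 and 0.189 in spleen WT. Klra2 rose in tumor against spleen in cKO (2.66 ± 0.53, edgeR adjusted p = 0.000797) and in WT (5.60 ± 0.69, edgeR adjusted p = 1.31e-05). Macrophage markers were higher in tumor too (9 of 10 in cKO and 10 of 10 in WT, beside 31.7% and 33.9% of all genes). Their part in the Klra2 result was not tested. In tumor cKO against tumor WT Klra2 did not pass (-0.05, adjusted p = 0.951). In spleen cKO it lay above spleen WT without overlap, as did 5.94% of all genes. That change did not pass (2.89 ± 0.74, edgeR adjusted p = 0.684) and rests on 0 to 4 reads per spleen WT library. The difference of its genotype effect between tissues passed (-2.935 ± 0.88, edgeR adjusted p = 0.0357). Macrophage markers summed to 101 to 133 CPM in spleen cKO and 30.8 to 57.1 in spleen WT, and their part was not tested. Klra17 (Ly49Q) and Klra11-ps had at most 20 and 9 reads in any library and were not tested.

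The other lectin-like receptor genes of the NK gene complex, which lie near the Ly49 cluster, were also lower in tumor. All 15 were lower in tumor than in spleen in both genotypes, beside 28.8% of all genes in cKO and 28.1% in WT. In tumor cKO against tumor WT 8 fell and 1 rose, beside 21.6% lower and 16.4% higher over all genes. The median log2 fold change was -1.25 over the 15, against -0.117 over all genes. Among the largest falls were Klrg1 (-3.06 ± 0.85), a marker of mature NK cells, and Klrb1b (-1.75 ± 0.22), of the NKR-P1 family. In spleen cKO against spleen WT 0 of 15 passed, beside 0.0297% of all genes.

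Signalling partners of the receptors and their ligands were also measured. Of 13 partner genes 7 were lower and 2 higher in tumor cKO than in tumor WT, beside 21.6% lower and 16.4% higher over all genes. Tyrobp, which encodes the DAP12 adaptor of Ly49D and Ly49H, had 22.6, 25.1 and 11.6 CPM in tumor cKO and 60.9, 89.2 and 65.6 in tumor WT, a fall without overlap (-1.87 ± 0.32, edgeR adjusted p = 0.000837). Macrophages also express Tyrobp, and 9 of the 10 macrophage markers fell in the same comparison, whose part in the Tyrobp result was not tested. Ptpn6, the gene of SHP-1, did not pass (0.20, adjusted p = 0.259), and neither did Hcst, the gene of DAP10. Of 7 MHC class I genes and their loading factors 4 were lower and 1 higher in tumor cKO, beside the same shares over all genes. H2-K1 was at -1.17 ± 0.20 and H2-D1 at -1.08 ± 0.16. Of 12 genes of NK maturation 5 were lower and 1 higher in tumor cKO, beside 21.6% lower and 16.4% higher over all genes. Zeb2, among the 5, was like the macrophage markers higher in tumor, with 164 to 570 CPM in tumor cKO, 1064 to 1180 in tumor WT, 194 to 242 in spleen cKO and 210 to 254 in spleen WT, and the part of macrophages was not tested.

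Reads of near-identical copies limit the single values. Of all 50-base words of Klra10 transcripts 39.8% also occur in another gene's transcripts, of Klra8 33.1%, of Klra9 31.5%, of Klra3 20.7%, of Klra13-ps 13.7% and of Klra7 12.3%, so that counts of these genes are uncertain where reads were short or multiply mapped. For Klra1 the share was 2.98%, all of it with Klra4, and no word of 100 bases was shared. Klra4 (4.68%) and Klra6 (2.62%) were also low and likewise shared no word of 100 bases. Of Klra8 words 14.4% were still shared at 100 bases and 6.03% at 150 bases, so longer reads need not settle its counts.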

How the data were processed

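RNA was measured in 12 libraries, 3 in each of 4 groups assigned from the sample titles. Per the submitters' processing notes the reads were mapped to mm10 with TopHat2 2.0.6. The counting program, strand setting, read length and treatment of multiply mapped reads were not stated in these sources. As deposited, the counts are unnormalized integers, and the table gives a position and length for each of 33100 rows. The authors also deposited RPKM values, which matched those recomputed from the counts within a tolerance of 1e-04 of each library's median ratio in 100% of cases. Of the counts from 1 to 49, 68.8% to 73.3% were even, so 1 count need not be 1 independent fragment. The targeted gene is not reported here, and the genotype labels have had no check by its level.

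Differences in counts were fitted using edgeR 4.0.16 in R 4.3.3 (filterByExpr, TMM, robust quasi-likelihood fit, 1 mean per group, 12 libraries, Benjamini-Hochberg adjustment over 16831 genes). TMM factors were 1.032 to 1.055 in tumor cKO, 0.896 to 0.957 in tumor WT, 1.018 to 1.046 in spleen cKO and 1.008 to 1.022 in spleen WT. Log2 CPM for profile likeness used a prior count of 2 and genes with a mean of at least 2. Alternatives were DESeq2 1.42.0, RLE or no composition factors, no filter, a replicate block, limma 3.58.1 on log2(RPKM + 0.5) or log2(RPKM + 0.1), fits without single libraries, without tumor WT replicate 2 and tumor cKO replicate 3 together, and on 6 libraries. Promoter windows were compared with Biopython 1.88. The members and lists were chosen with earlier results of these data known. Named genes are the 9 members, the other Klra rows, the largest called changes of each list, 6 cell type markers and the genes nearest in profile; Tcf7, Bcl11b, Tbx21, Mcm7 and several list genes were given in more detail after their values were seen.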

Additional observations from a re-analysis of the deposited data

Results flagged for a closer look

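Beside 18.3% of all genes tested (7.68% more positive, 10.6% more negative), the genotype effect differed between tumor and spleen in 5 of the 9 genes. The test was of the difference itself, the effect in tumor minus that in spleen on the log2 scale. The value was 1.28 for Klra1, -1.87 for Klra3, -3.11 for Klra6, -2.19 for Klra7 and -2.77 for Klra9. For Klra1 all 3 tumor cKO libraries were above all tumor WT libraries, and for the other 4 genes all 3 were below, while in spleen the groups overlapped for all 5 genes. Over all genes tested, 50.3% had tumor groups without overlap (23% higher, 27.3% lower), and 11.4% had spleen groups without overlap. The summed NK marker level was lower in tumor cKO (31.0 to 45.5 CPM) than in tumor WT replicates 1 and 3 (155 and 127 CPM) and close to tumor WT replicate 2 (43.5 CPM). The summed T-cell marker level was higher in tumor cKO (558 to 768 CPM) than in tumor WT (265 to 336 CPM). Their part in the 5 differences was not tested.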

How the results depend on the processing

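Counts of called genes stayed within 1.5 times of the reported ones under the alternatives run, except for the difference of the genotype effect between tissues (reported 5), where 8 genes passed with no filter on low counts and 3 without tumor cKO replicate 3. Over all genes this difference passed for 3072 as reported, 3775 with no filter and 2140 without tumor cKO replicate 3. Leaving out 1 library at a time gave 5 to 8 called genes in tumor cKO against tumor WT, 3 to 6 for the difference, 9 to 9 in tumor against spleen in cKO, 8 to 8 in WT and 0 to 0 in spleen cKO against spleen WT. Over all genes these fits gave 4410 to 6721 calls in tumor cKO against tumor WT and 2140 to 4059 for the difference. In tumor against spleen they gave 9224 to 10933 in cKO and 9586 to 10705 in WT, and in spleen cKO against spleen WT 0 to 8. In tumor cKO against tumor WT the 6 tumor libraries alone gave 5 calls, beside 5383 over all genes. Klra10 (adjusted p = 0.0589) and Klra13-ps (0.076) were not among the 5. Klra13-ps also missed with no composition factor (0.0541) and on log2(RPKM + 0.5) (0.0543). Leaving out tumor cKO replicate 3 together with tumor WT replicate 2, Klra10 (0.192) and Klra13-ps (0.0572) missed and Klra8 passed (0.0143). Over all genes, spleen cKO against spleen WT gave 5 calls as reported, 46 with DESeq2, 230 with no filter, 31 in the 6 spleen libraries alone and 2 with the replicate block. The cause of these changes was not tested. Klra1 was higher in tumor cKO and Klra9, Klra6, Klra7 and Klra3 lower, each past the threshold, in all 12 fits that left out 1 library (Klra1 1.37 to 1.79, Klra9 -3.50 to -2.73).

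Signs turned only among uncalled genes of spleen cKO against spleen WT. Leaving out 1 library, the log2 fold change of Klra3 lay between -0.25 and 0.28, of Klra7 between -0.079 and 0.17, and of Klra10 between -0.69 and 0.27. With tumor cKO replicate 3 and tumor WT replicate 2 omitted that of Klra3 was -0.001, and with the replicate block it was -0.007.

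Deviations of same-numbered libraries from their group means correlated at -0.088 to 0.111 over 18 pairs. Differently numbered pairs were not set beside them, so these values cannot show whether same-numbered libraries share an animal. With the replicate number as a block, 8 genes were called in tumor cKO against tumor WT (Klra8 added, adjusted p = 0.0381), 9 in tumor against spleen in cKO, 8 in WT, 5 for the difference and 0 in spleen cKO against spleen WT. Over all genes the same fit called 5969, 9954, 10112, 2792 and 2 in these comparisons, in that order. Low read numbers limit the tumor cKO values, where Klra6 had 6 reads a library and Klra10 had 2 to 12, in libraries at least as deep as those of spleen.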
